A study of Mus musculus with 23 samples.

Results

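Arc and Bdnf are a pair of plasticity genes of cortical neurons, and their transcripts were followed in the prefrontal cortex of mice after an injection of tumour cells. They were taken by gene symbol from the probe table of the arrays. Each has 1 probe (GenBank entries NM_018790 for Arc and NM_007540 for Bdnf), so the 2 genes stand for 2 of 8997 probes and 2 of 8726 gene symbols. The mice were male Balb/c, 8 weeks old, and received under the skin either PBS alone or 300 ul of PBS with 1000000 cells of CT-26.WT, a colon carcinoma line derived from Balb/c mice. Cortex was taken 18, 72 or 192 h later, and on each array the RNA of a tumour-injected and of a PBS-injected group was hybridised together in opposite dyes. The labels give no other allele or agent and do not say how many animals went into a replicate, so the spread between replicates may be partly technical. The values are log2 ratios of tumour over PBS within an array, so 0 means equal signal and 1 means a doubled one.

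Arc encodes a protein of the postsynaptic side that binds the endocytic machinery and helps to remove AMPA-type glutamate receptors from synapses. Its transcription is switched on quickly and briefly by neuronal firing, which makes its RNA a common marker of recent activity. Bdnf encodes brain-derived neurotrophic factor, a secreted protein that acts on the receptor TrkB to strengthen synapses and support neurons. Its transcripts start at several alternative promoters, some of which respond to calcium entry, and the TrkB signal in turn can induce Arc. In bulk tissue, fewer cells of a type and less RNA per cell cannot be told apart.

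Of 23 arrays from 11 replicates, 16 arrays from 9 replicates were used: 3 replicates at 18 h, 2 at 72 h and 4 at 192 h. The other 7, which include the poly(A) replicates 1 and 2 at 72 h, were left out because the brightness of their spots did not follow the probe names. Their mean Spearman rho with chosen arrays of other layouts was 0.00736 to 0.0478, against 0.188 to 0.504 on the arrays used. The chosen arrays were those with bright ribosomal and respiratory chain probes. The 3 scanner files of an array, called scans here, held 1821 to 8638 usable spots of 10080 on the arrays used, and the median spot signal with background was 1.97 to 3.15 times the local background. 192 h replicates 1 and 2 were poly(A) RNA on print layout 3, and the other replicates used were total RNA. Excitatory neuron markers, 7 of the 10 fixed being on the array, had a median brightness between percentiles 43.0 and 82.4 of an array. Of the 6 striatum markers 2 were on the array, too few to check the dissection.

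The RefSeq table of promoters (GRCm38.p6) holds 7 start sites for Bdnf. The deposited tables name the Bdnf probe by 1 transcript entry and do not place the oligonucleotide, so the ratios below cannot be assigned to any of these starts. Of the 7 windows of 250 bases before a start, 1 holds the core of a cyclic AMP response element, TGACG searched on both strands, and it is shown because this element is the textbook route from calcium entry to Bdnf transcription in rodents. It lies on the plus strand at chr2:109692186-109692435, with the core, read on the minus strand, in capitals.
Bdnf: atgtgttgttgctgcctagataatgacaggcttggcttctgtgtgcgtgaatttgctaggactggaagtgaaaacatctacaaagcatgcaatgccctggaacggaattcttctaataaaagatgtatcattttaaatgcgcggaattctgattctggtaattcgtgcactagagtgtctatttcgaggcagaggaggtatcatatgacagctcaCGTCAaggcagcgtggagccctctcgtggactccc
The same core occurs in 17.8% of all 32851 windows of that length in the table. The full palindrome TGACGTCA, which contains the core on both strands, the E-box CACGTG and the CArG box were found in 0 of the 7 Bdnf windows, against 1.55%, 6.02% and 1.47% of all windows. A match is a description of letters only.

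At 18 h, the Arc ratio was above 0 in 3 of 3 replicates, by very unequal amounts, and the mean did not pass the test. Replicate 3 gave a log2 ratio of 0.021, replicate 4 gave 2.64 and replicate 5 gave 0.96. Replicate 3 was thus near equality, and its sign turned with the processing, to -0.029 with loess inside each sub-grid and -0.055 with the median over scans. Replicate 4 stood far above the others, on a ratio to a PBS signal barely above background that is described below. The fitted log2 ratio of Arc was 1.21 ± 0.36 (SE, n = 3, 95% interval 0.40 to 2.02). The unadjusted limma p was 0.00767 and the adjusted p 0.759 over 5733 probes. The SE comes from a variance shared by all times and squeezed towards that of other probes. The interval is therefore not that of these 3 unequal replicates alone. The limma test called 0 of the 5733 probes, 0% of them, with 342 (5.97%) at an unadjusted p under 0.05.

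**Figure D1:**
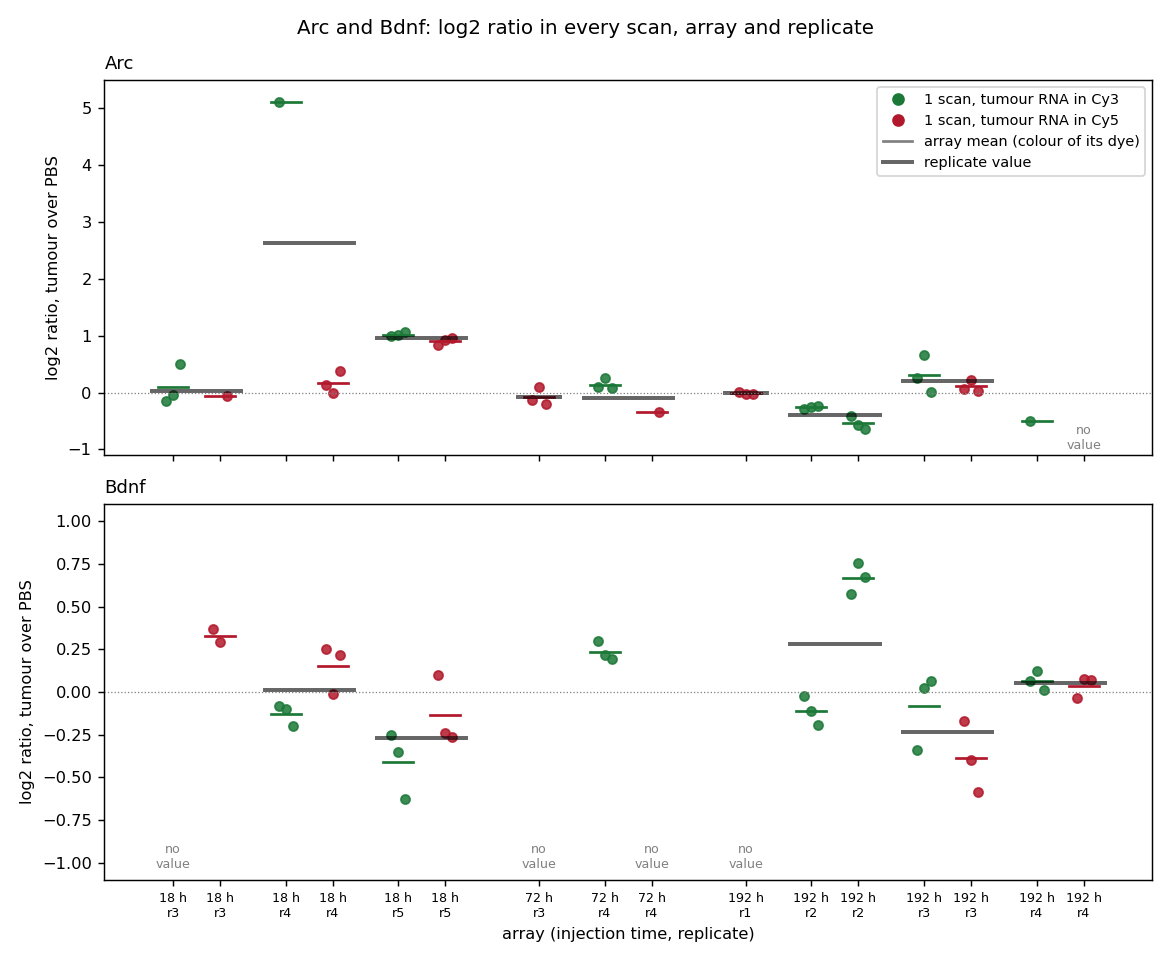
Log2 ratio of tumour over PBS (vertical axis) for Arc and Bdnf on each of the 16 arrays used (horizontal axis, by time and replicate, r for replicate). Points are single scans, coloured by the dye of the tumour RNA, thin lines array means and thick lines replicate values. A single Arc scan stands at 5.11, and the 6 scans of 18 h replicate 5 stand between 0.83 and 1.06.

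After loess, Arc was even across dyes and scans in replicate 5. Its array with tumour RNA in Cy3 gave 0.99, 1.01 and 1.06 in the 3 scans, and its dye-swapped array gave 0.83, 0.93 and 0.96. All 6 scans were therefore close to 1, in both dye orientations, and 86.2% of 7697 probes differed more between the orientations of that replicate than Arc did, whose Cy5 value minus its Cy3 value was -0.11. Before normalisation the 2 arrays lay far apart. On the Cy5 array the first scan held tumour and PBS net intensities of 1656548 and 419981, and the log2 ratios of the 3 scans were 1.98, 1.99 and 1.97. On the Cy3 array the first scan held 328362 and 451421, and the ratios were -0.46, -0.31 and -0.17. With each scan centred on its median in place of the loess, replicate 5 stood at 0.69. The deposited scores for the same arrays, whose log base is not stated, were 0.39 and 0.764.

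Replicate 4 was uneven. With tumour RNA in Cy5, its array gave Arc log2 ratios of 0.14, -0.0032 and 0.37, with a mean of 0.17. With tumour RNA in Cy3, 1 scan of 3 was usable, and it gave 5.11. In that scan the PBS signal was barely above background, so 5.11 cannot be read as an exact value. There the tumour net intensity was 720035 and the PBS net intensity 18072. The PBS signal was at percentile 0.501 of its channel and, with the background included, at 1.16 times the local background, and 2 of 5186 usable spots had a lower PBS signal over background. In the other 2 scans the PBS net intensity was listed at 0, with tumour net intensities of 1509477 and 325552, and no ratio exists. The local background per pixel in the tumour channel was at percentiles 99.6, 99.4 and 99.7 of the spots in the 3 scans, among the highest backgrounds of the array. In the usable scan the background of the PBS channel was high as well, at percentile 98.2. The part of the background of either channel in the ratio was not tested. The ratio with tumour RNA in Cy5 minus that in Cy3 was -4.94, a size exceeded by 0.0714% of 4199 probes, where the median probe differed by 0.366. The deposited table has no Arc score for this array.

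Because the value of replicate 4 rests on this scan, the 18 h ratio was also computed without it. Without replicate 4 the fitted Arc ratio was 0.49 ± 0.22 (limma adjusted p = 0.70), and with spots required to reach 1.5 times the background it was 0.49 (adjusted p = 0.806). Without background subtraction it was 0.69 (adjusted p = 0.906), and without replicate 3 it was 1.80 (adjusted p = 0.131). Where a value in at least 2 scans was required, replicate 5 alone kept an Arc value and no test was made. In every alternative run at 18 h Arc stayed above 0, from 0.32 in the deposited scores to 1.80, and in none did it pass. Many of these alternatives, such as those on the dye term or on replicates of other times, leave the 18 h estimate at 1.21. Their direction could not change, so they add no support.

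**Figure D2:**
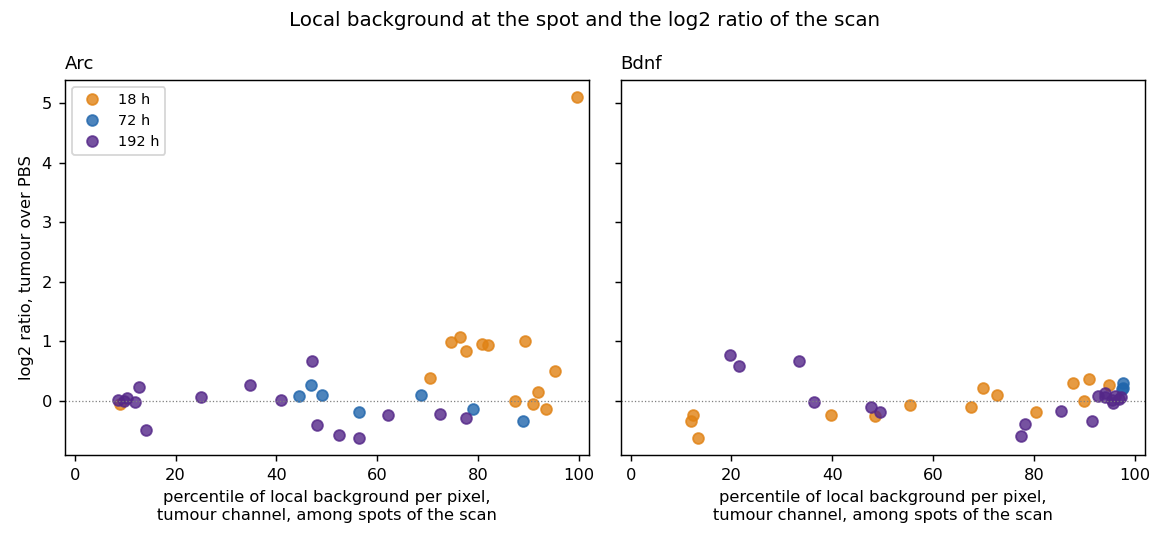
Log2 ratio of tumour over PBS in each usable scan (vertical axis) against the percentile of the local background per pixel in the tumour channel among the spots of that scan (horizontal axis), for Arc and Bdnf, coloured by time. The Arc scan at 5.11 lies at percentile 99.6, and the scans of 18 h replicate 5, close to 1, lie lower.

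Arc was near equality in replicate 3 at 18 h. Its array with tumour RNA in Cy3 gave -0.14, -0.050 and 0.50 over the 3 scans. Its array with tumour RNA in Cy5 had 1 usable scan, at -0.059. On that array the spot was dim, at percentile 15.1 of brightness, and 61.6% of the 5000 probes with a value rested on a single scan.

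At 72 h, Arc lay close to equality. Replicate 3, of a single dye orientation, stood at -0.077 and replicate 4 at -0.10. The 2 arrays of replicate 4 stood on opposite sides of 0, at 0.14 with tumour RNA in Cy3 and -0.35 with tumour RNA in Cy5, the latter from 1 scan. The fitted ratio was -0.17 ± 0.49 (SE, n = 2, 95% interval -1.26 to 0.92, limma adjusted p = 0.999), below both replicates because the dye term shifts replicate 3, and the unweighted mean, which is also the value without the dye term, was -0.090. Without loess it was -0.56 (adjusted p = 0.784) and with all 23 arrays -0.044. The limma test called 1 of 4440 probes at this time (0.0225%), Spata48.

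At 192 h, Arc lay on both sides of 0. Replicates 1, 2 and 3 had log2 ratios of -0.0099, -0.40 and 0.21, and replicate 4 had no value because its Cy5 array held none. The lone Cy3 array of replicate 4 gave -0.50 from 1 scan. The fitted ratio was -0.066 ± 0.36 (SE, n = 3, 95% interval -0.88 to 0.74, limma adjusted p = 0.999), with 1 of 6465 probes called (0.0155%), Krtap13.

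The 2 poly(A) replicates at 192 h had bright Arc spots, and their Arc ratios changed with the normalisation. Their spots lay between percentiles 83.6 and 93.2 of brightness on 3 arrays, with scans agreeing within 0.042 on the array of replicate 1. Replicate 2 was below 0 in each of its 6 scans, from -0.63 to -0.23. With each scan centred on its median in place of the loess, replicate 1 stood at 1.01 and replicate 2 at -0.80. Replicate 1 had tumour RNA in Cy5 and replicate 2 in Cy3, so dye and replicate cannot be told apart in that difference. On total RNA the Arc spot lay between percentiles 15 and 85.9 on the 10 arrays of layout 5 with a value. The kind of RNA and the print layout cannot be told apart here.

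**Figure D3:**
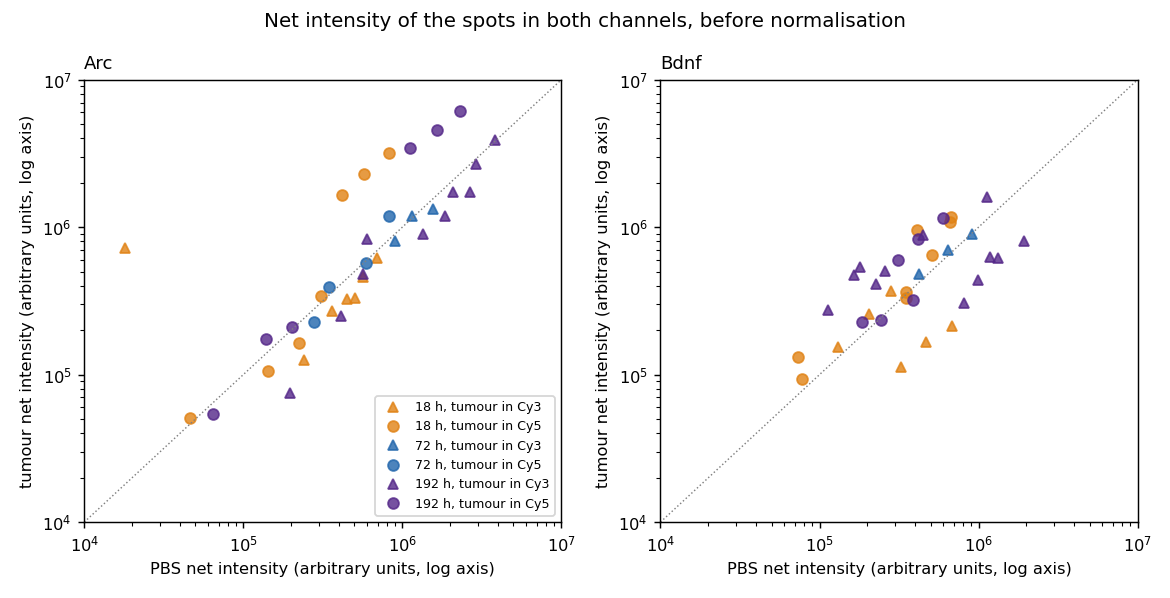
Net intensity of the Arc and Bdnf spots in the tumour channel (vertical, log axis, arbitrary units) against the PBS channel (horizontal, log axis) in each usable scan of the arrays used, before normalisation; triangles have tumour RNA in Cy3 and circles in Cy5, colours mark the time, and the dotted line marks equality. A single Arc scan, with 18072 in the PBS channel, lies far to the left of the others.

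In order of the fitted ratio, Arc was highest at 18 h, then at 192 h and then at 72 h. The neighbours 192 and 72 h differed by 0.10 ± 0.61 (SE, limma adjusted p = 1), less than that SE. Its variance is shared with the 18 h replicates, so it is not the spread of these 2 times alone. The ratio at 192 h minus that at 18 h was -1.27 ± 0.51 (SE, 95% interval -2.42 to -0.13, limma adjusted p = 0.981). All Arc values at 18 h were total RNA on print layout 5. Those at 192 h were poly(A) RNA on layout 3 (replicates 1 and 2) and total RNA on layout 4 (replicate 3). Time and print layout therefore cannot be told apart in this difference, nor, for replicates 1 and 2, the kind of RNA. Of 4834 probes 1, Krtap13, was called in this comparison (0.0207%). Without 18 h replicate 4 the difference was -0.56 ± 0.28 (adjusted p = 0.791). The F test over the 3 times gave F = 3.97 (limma adjusted p = 0.999), with 2 of 6103 probes called (0.0328%), again Spata48 and Krtap13, genes named after their values were seen. The replicates of 18 and 192 h overlapped, since replicate 3 at 18 h (0.021) lay below replicate 3 at 192 h (0.21).

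Bdnf lay close to equality at both times with a test, and its values were small and of mixed sign. At 18 h replicate 4 gave 0.013 and replicate 5 gave -0.27, and replicate 3 had no value. The arrays of replicate 4 stood at -0.13 with tumour RNA in Cy3 and 0.15 with tumour RNA in Cy5, and those of replicate 5 at -0.41 and -0.13. In both replicates the Cy5 array was thus the higher, by 0.28 in each, less than the difference of 61.1% and 65.9% of all probes in those replicates. The fitted ratio at 18 h was -0.13 ± 0.16 (SE, n = 2, 95% interval -0.50 to 0.25, limma adjusted p = 0.938).

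At 72 h, Bdnf had a value on 1 array, replicate 4 with tumour RNA in Cy3, at 0.24 (scans 0.30, 0.22 and 0.19), and no test was made. On the dye-swapped array the tumour channel held net intensities of 237467, 330481 and 606603 over the 3 scans, and the PBS channel was listed at 0 in each. Replicate 3 held signal in 1 scan, in the PBS channel alone.

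At 192 h, Bdnf stood at 0.28 in replicate 2, -0.23 in replicate 3 and 0.050 in replicate 4, on both sides of 0. The 2 arrays of replicate 2 had the same dye orientation and gave -0.11 and 0.67, a gap wider than that between any 2 replicates of the gene at this time. Replicate 4 was the most even, at 0.065 and 0.035 on its 2 arrays, with the spots between percentiles 90.2 and 93.4 of brightness. The fitted ratio was -0.092 ± 0.16 (SE, n = 3, 95% interval -0.47 to 0.28, limma adjusted p = 0.999), and the unweighted mean was 0.032. The sign differs because the dye term takes up replicate 2, which has a single orientation, and leaves the mean of replicates 3 and 4.

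Between 18 and 192 h, the Bdnf ratio differed by 0.037 ± 0.23 (SE, 95% interval -0.49 to 0.57, limma adjusted p = 0.999). The F value was 0.026 (adjusted p = 0.999). The replicates of the 2 times overlapped.

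Bdnf lacked a ratio in some scans, nearly as few as Arc did, and where 1 channel was lit it was mostly Cy5. Missing ratios were common on these arrays, where 1821 to 8638 of 10080 spots were usable in a scan. The share of all spots lit in Cy5 alone was not counted. On the arrays used, 35 of 48 scans gave a Bdnf ratio, 10 held signal in 1 channel and 3 in none. Of the 10, Cy5 alone was lit in 8, from 3 arrays, and Cy3 alone in 2, from 2 arrays, while by sample 6 had tumour signal alone and 4 PBS signal alone. On 192 h replicate 1, tumour RNA in Cy5 gave 405766, 470709 and 844447 with PBS listed at 0 in each scan. On the 18 h replicate 3 array with tumour RNA in Cy3, the PBS channel, in Cy5, gave 255946 and 431659 in 2 scans with the tumour channel at 0. For Arc, 37 of 48 scans gave a ratio, and of 7 scans with 1 lit channel 4 were lit in Cy3 and 3 in Cy5. The part of the dye in the missing values was not tested.

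The brightness rank of Bdnf lay lower on the poly(A) arrays, which are of another print layout. On the 8 total RNA arrays of layout 5 with a value, its spot lay between percentiles 66.3 and 93.4, and on the 2 poly(A) arrays of layout 3, both of 192 h replicate 2, at 14.4 and 18.6. In the PBS channel at 18 h its median percentile over scans was 74.2, and at 192 h 76.3. For Arc the PBS channel had median percentiles of 76.2 at 18 h, 83.6 at 72 h and 87.2 at 192 h. These ranks hold within an array and set no level of one gene against the other. On the arrays left out, whose spots did not follow their names, the spot listed as Arc gave -0.26 to 0.25 and that listed as Bdnf -0.81 to 0.38. These values entered only the alternative with all 23 arrays.

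**Figure D4:**
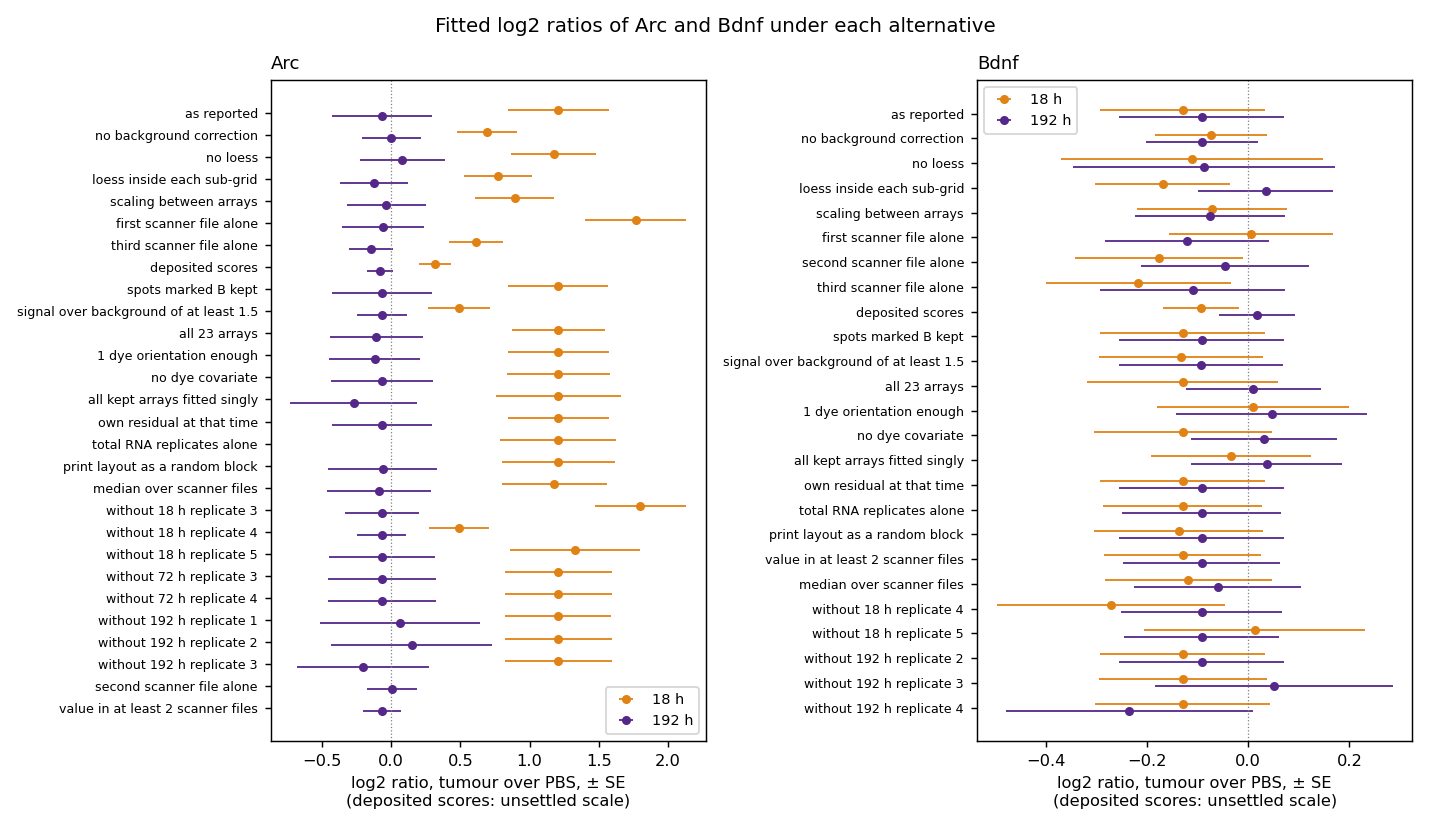
Fitted log2 ratios of tumour over PBS (horizontal axis, bars are standard errors) of Arc and Bdnf at 18 and 192 h under each processing alternative (vertical axis); the deposited scores are on an unsettled scale. Arc at 18 h lies between 0.32 and 1.80 and Bdnf at 192 h between -0.23 and 0.050, on both sides of 0.

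The list of neurotrophin ligands and the proteins that process them was represented by few measured genes, and no ligand of the list was among them. The list holds 16 genes, 6 of them on the array and 3, 4 and 5 measured at 18, 72 and 192 h, and 0 passed at any time. Pcsk6 and Pcsk5, proprotein convertases, stood at -0.14 ± 0.16 and 0.075 ± 0.15 at 18 h. Mmp3, a matrix metalloproteinase that can cleave the Bdnf precursor, was at 0.43 ± 0.22 at 192 h, with 1.35, 0.18 and -0.25 in replicates 1, 2 and 4. The list's median was -0.033 at 18 h and 0.080 at 192 h, beside medians of -0.017 and 0.012 over all probes.

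Among the receptors, Ntrk2, which encodes TrkB, the signalling receptor of Bdnf, was the best measured. The fitted log2 ratios of Ntrk2 from the earliest to the latest time were -0.087 ± 0.12, -0.086 ± 0.17 and -0.046 ± 0.11, with limma adjusted p of 0.952, 0.999 and 0.999. The 4 replicates at 192 h were -0.0039, -0.18, 0.013 and -0.018, all close to equality. Slitrk5, a TrkB co-receptor, was at -0.21 ± 0.18 at 18 h with -0.72 in replicate 5, and Sort1, the sorting receptor sortilin, at -0.24 ± 0.18 at 192 h. Of the 10 receptor genes, 4, 2 and 2 were measured at the 3 times, each with a ratio below 0 and 0 passing, with list medians of -0.10, -0.12 and -0.14. Over all probes 45.6%, 47.3% and 53.5% were above 0, with medians of -0.017, -0.011 and 0.012.

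Below TrkB, Sos1 and Grb2 had the smallest p at 18 h among genes of the signalling list, on opposite sides of 0. Sos1, a Ras exchange factor, stood at 0.59 and 0.61 in replicates 4 and 5 and was fitted at 0.60 ± 0.16 (limma adjusted p = 0.759). Grb2, the adaptor that brings Sos1 to the receptor, stood at -0.60, -0.13 and -0.48 and was fitted at -0.40 ± 0.12 (adjusted p = 0.759). Of 14 measured genes of the list at 18 h, 5 were above 0 and 9 below, beside 45.6% of all probes above 0. The list median was -0.063, beside -0.017 over all probes. An unadjusted p under 0.05 was found for 3 of the 14, beside 5.97% of all probes, and 0 passed. Besides Sos1 and Grb2, the third was Pik3cb, a catalytic kinase subunit, at -0.51 ± 0.16, named after its value was seen. Akt1, a survival kinase, was at 0.19 ± 0.11 at 192 h, and Pik3r2 and Shc3, a kinase subunit and an adaptor, at -0.34 ± 0.23 and -0.22 ± 0.15 at 72 h.

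Among regulators of Arc and Bdnf transcription, 5, 9 and 11 genes were measured at the 3 times and 0 passed. Creb1, the factor that binds the element shown above, was at 0.27 ± 0.24 at 192 h, with 1.13 in replicate 2 and -0.12 and -0.19 in replicates 1 and 4. Hdac5, a class IIa histone deacetylase, was at 0.54 ± 0.25 at 18 h, with 1.54 in replicate 4 and -0.015 and 0.098 in replicates 3 and 5, so that its mean, like that of Arc, rested on replicate 4. Elk1, a partner of serum response factor, was at -0.27 ± 0.15 at 18 h and -0.22 ± 0.16 at 72 h. Camk2a, a calcium-dependent kinase, was at 0.28 ± 0.18 at 72 h.

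Arc partners and AMPA receptor genes were the list with the most genes on the array, 19 of 26, of which 17, 12 and 16 were measured and 0 passed. At 18 h, Ap2b1, a subunit of the clathrin adaptor, was at -0.50 ± 0.18 (limma adjusted p = 0.775, replicates -0.15 and -0.85), and Camk2b, the kinase that binds Arc at inactive synapses, at 0.43 ± 0.17 (adjusted p = 0.803, replicates 0.27 and 0.59). Camk2b stood at -0.27 ± 0.19 at 72 h, on the other side of 0. Dnm1, the neuronal dynamin that works with Arc in endocytosis, was at -0.29 ± 0.24 at 72 h and -0.20 ± 0.16 at 192 h. Cacng3, an auxiliary AMPA receptor subunit, was at -0.15 ± 0.12 at 192 h.

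Other activity-induced genes lay on both sides of 0 at 18 h. Of 14 measured at 18 h, 5 were above 0 and 9 below, beside 45.6% of all probes above 0. Their median was -0.020, beside -0.017 over all probes. Fosb, an immediate early transcription factor, was at -0.44 ± 0.19 (limma adjusted p = 0.807, replicates -0.73 and -0.15), and Egr3, another, at -0.28 ± 0.16 (adjusted p = 0.819). At 72 h, Nr4a2, an orphan nuclear receptor, was at 1.74 ± 0.35 (limma adjusted p = 0.851, replicate 3 at 0.040, replicate 4 at 2.23). The dye term shifts replicate 3, which has a single dye orientation, so this fit is not the mean of the 2 replicates. Fosl2 was at -0.77 ± 0.38 with 0.12 and -1.54. At 192 h, Dusp1, a phosphatase of MAP kinases, was at -0.16 ± 0.11 and Ier5 at -0.18 ± 0.13. The 18 h difference between Arc and this list was not tested. Among the cell type markers 0 genes passed at any time, and at 18 h the median was 0.015 over 7 excitatory, -0.12 over 5 inhibitory and 0.17 over 3 choroid plexus and meningeal genes measured. The 2 microglia genes measured had a median of -0.15, the astrocyte gene Aldh1l1 stood at 0.11 and the T cell gene Cd3e at -0.33. The striatum marker Rgs9 stood at -0.97 ± 0.43 (limma adjusted p = 0.819). Its replicates 4 and 5 stood at -2.03 and 0.10, and Drd2, not tested at 18 h, was at -0.30 in replicate 5. The part of dissection in the 18 h ratio of Arc was not tested.

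**Figure D5:**
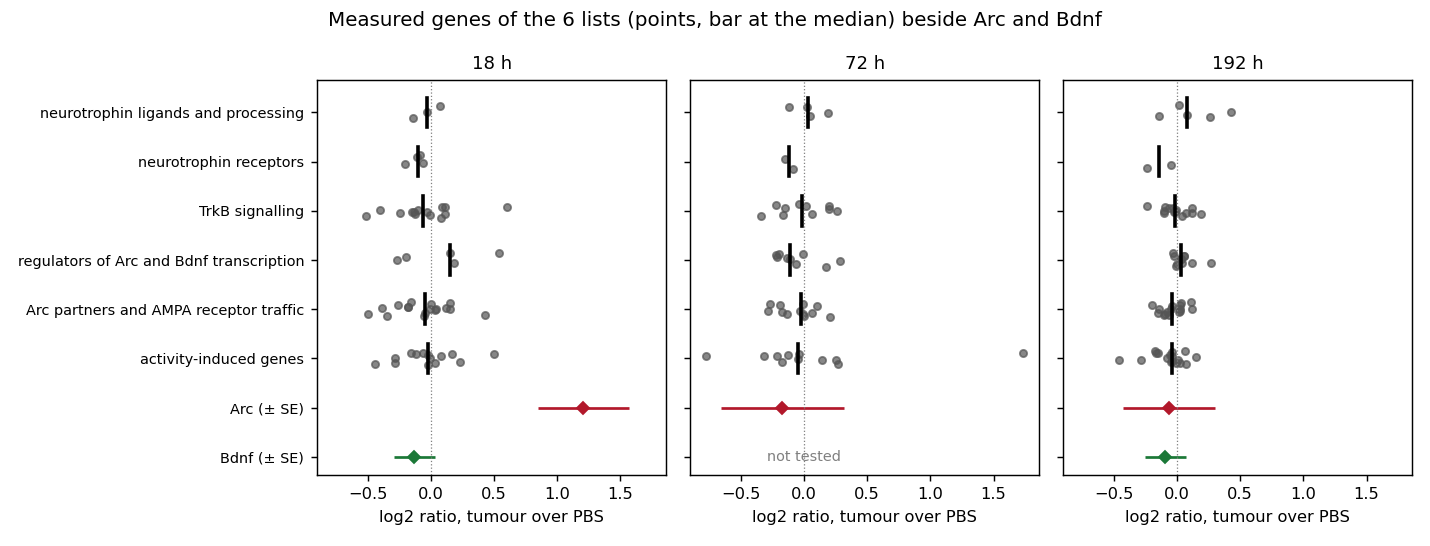
Log2 ratios of tumour over PBS (horizontal axis) at 18, 72 and 192 h for the measured genes of the 6 lists (grey points, black bar at the list median) with the fitted values of Arc and Bdnf and their standard errors below. Arc at 18 h, at 1.21, lies to the right of every point at that time, and Nr4a2 at 72 h, at 1.74, is the point farthest from 0.

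The probes most like Arc across replicates were sought among 2103 with at least 7 replicates in common with it. Slc20a1, a phosphate transporter, had a Pearson r of 0.987 (Spearman rho 0.607) over 7 replicates, Rbpms2, an RNA-binding protein, 0.961 (rho 0.69) over 8 and Sdf4, a calcium-binding protein of the Golgi, 0.923 (rho 0.357) over 8. Without 18 h replicate 4 the r values were 0.584, 0.817 and 0.32, so the likeness of Slc20a1 and Sdf4 rested mostly on that replicate, in which they stood at 2.2 and 1.12. These are descriptions, and the probes compared share the same arrays. Bdnf had values in 5 replicates, too few for such a comparison.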

How the data were processed

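Prefrontal cortex RNA was measured on in-house 2-colour oligonucleotide arrays, 3 scanner files per array. Per the file headers, the authors' software gave each spot's intensity with the local background subtracted, on a linear scale, and the background beside it. The deposited table gives a score per spot and array; its log base and normalisation are not given in the sources used here, so it served as an alternative. Channel A was taken as Cy3, because the deposited scores then follow the labels' dyes (correlation 0.562 to 0.88 on the arrays used); otherwise every direction turns.

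Spots marked B, X, Y or Z or at 0 were left out. Log2 ratios were normalised per scanner file by loess (span 0.3, 4 iterations), given the sign of tumour over PBS, and averaged over scanner files and then over the arrays of a replicate. A dye-swapped replicate needed both orientations. Arrays with a mean rho under 0.1, a limit known from an earlier analysis of these data, were left out. The mean was taken over arrays of other layouts whose ribosomal and respiratory chain probes had a median brightness at percentile 75 or above. A time needed 2 replicates with a value to be tested. Probes were fitted with a mean per time and a dye term (0, 1 or -1), with squeezed variances (limma 3.58.1, R 4.3.3). Each probe had 1 residual variance shared by all times, so an SE is not the spread within a time. The p-values were adjusted by Benjamini-Hochberg over all probes, at 0.05. The fit was tested on simulated data. Symbols were updated with a RefSeq table (GRCm38.p6), which also gave the promoters.

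Genes named are Arc, Bdnf, of each list the 2 with the smallest unadjusted p at a time, and the 3 most like Arc. The members and lists were chosen with earlier results of these data known. Alternatives covered background, normalisation, scanner file, filters, arrays, dye term, layout and each replicate left out. The number of arrays limits the precision. The labels share replicate numbers across times, but same-numbered replicates did not deviate together (correlations -0.145 to 0.0144).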

Additional observations from a re-analysis of the deposited data

Results flagged for a closer look

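Arc differed in sign between 18 h and 72 h in every replicate with a value under the reported processing: the 3 at 18 h were above 0 (0.021, 2.64 and 0.96) and the 2 at 72 h below (-0.077 and -0.10). Single arrays did not all follow this split. Those of 18 h replicate 3 stood at 0.10 and -0.059, and those of 72 h replicate 4 at 0.14 and -0.35. The split is lost with loess inside each sub-grid, where 18 h replicate 3 stood at -0.029, and with the median over scans (-0.055). It is also lost in the second scanner file, where 72 h replicate 3 stood at 0.0998, and with all 23 arrays. There 72 h replicates 1 and 2, whose spots did not follow their probe names, stood at 0.16 and 0.14. The fitted difference, 72 h minus 18 h, was -1.38 ± 0.61 (SE), with an unadjusted limma p of 0.0469 and an adjusted p of 0.998. Without 18 h replicate 4 it was -0.66 ± 0.32 (adjusted p = 0.996). In the scan with a ratio of 5.11 behind that replicate, the local background was at percentile 99.6 in the tumour channel and 98.2 in the PBS channel. The part of that background in the difference was not tested.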

How the results depend on the processing

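Arc at 18 h kept its direction in each of 25 alternatives run (0.32 to 1.80, limma adjusted p 0.131 to 0.998) and passed in none. Many of these leave the 18 h estimate at 1.21, so their direction was fixed in advance. Arc at 192 h minus 18 h kept its direction in each of 24 (-1.87 to -0.40). Arc at 72 h ranged from -0.56 (without loess) to 0.036 (arrays fitted singly). Arc at 192 h turned to 0.0017 without background correction, 0.079 without loess and 0.0049 in the second scanner file, and ranged from -0.20 to 0.15 with a replicate left out. Bdnf at 18 h turned to 0.0052 in the first scanner file and 0.0091 with 1 orientation enough, and ranged from -0.27 to 0.013 with a replicate left out. Bdnf at 192 h turned to 0.035 (loess in sub-grids), 0.017 (deposited scores), 0.010 (all 23 arrays), 0.046 (1 orientation enough), 0.032 (no dye term) and 0.036 (arrays singly), and ranged from -0.23 to 0.050 with a replicate left out. Bdnf at 192 h minus 18 h turned to -0.018 (no background correction), -0.0045 (scaling) and -0.13 (first scanner file), and ranged from -0.11 to 0.18 with a replicate left out. At 72 h Bdnf had a test with all 23 arrays alone (-0.050, adjusted p = 0.993). The cause of these turns was not tested.

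Probes called at 18 h numbered 0, 1 with a value in at least 2 scanner files, and 0 to 7 with a replicate left out. At 72 h 1 was called, 0 without background correction, in the first or second scanner file, at 1.5 times the background, without the dye term, with arrays singly and with 2 scanner files, 2 with 1 orientation enough, 3 with all 23 arrays, 7 without loess and with total RNA alone, and 0 to 9 with a replicate left out. At 192 h 1 was called. The number was 0 without background correction, in the second scanner file, in the deposited scores, at 1.5 times the background and with all 23 arrays. It was also 0 with 1 orientation enough, no dye term, arrays singly and total RNA alone, and 0 to 1 with a replicate left out. With only the 4881 probes that have a residual at 192 h itself, tested on the same shared variance, it was 0. With the replicate number as a block, Arc at 192 h minus 18 h was -0.47 (adjusted p = 0.997), and the numbers pair nothing in the labels. The alternatives on scanner files were chosen after seeing the data (2 files required, median over files).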
